A study of Mus musculus with 6 samples.

Results

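Dux and 9 genes of the 2-cell embryo that lie away from one another in the genome were followed across 6 clones of mouse induced pluripotent stem cells (iPSCs): Duxf3, Zfp352, Usp17la, Ubtfl1, Tdpoz1, Spz1, Gm4850, Sp110, Tmem132c and Arg2. Every probe set whose array annotation names 1 of these genes alone was taken, which gave 15 probe sets for the 10 genes, of 45037 probe sets in all and of 18193 genes that the array names alone. The genes had been picked because their signals differ between the 2 groups of clones and vary together within them, so their levels are a description and no test of the group difference is given for them.

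All clones came from embryonic fibroblasts of Nanog-GFP-IRES-Puro transgenic mice that were transduced with retroviruses for Oct3/4, Sox2, Klf4 and c-Myc plus dsRed, on SNL feeder cells. They were kept in 3i, a mixture of the GSK3β inhibitor CHIR99021, the MEK inhibitor PD184352 and the FGF receptor inhibitor SU5402. Clones 1, 2 and 3, the (−)/(+) iPSCs, had been reprogrammed without 3i, while clones 4, 5 and 6, the (+)/(+) iPSCs, had received it during reprogramming too. Each clone is 1 line on 1 array, which limits each group to 3 lines. RNA was measured on Affymetrix Mouse Genome arrays as MAS signal values on a linear scale, with the mean of every array set to 500 after the extremes were trimmed.

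The 2-cell stage is when the main wave of transcription from the mouse embryo's own genome takes place. Dux, a double homeobox factor encoded in a repeated gene cluster, is one of the earliest products of that genome and binds and switches on many other 2-cell genes, a number of which start in endogenous retroviral elements. In cultures of mouse pluripotent stem cells a rare and transient fraction of cells expresses the same genes, so that a bulk signal averages over very unlike cells.

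Promoter sequences from RefSeq (build GRCm38.p6) are shown first, because 3 of the members share letters there. Of the 10 members 8 had a window of 250 bases before and 50 bases after an annotated start, and Gm4850 and Arg2 had none. There were 9 windows in all, since Sp110 has 2 annotated starts in the table. The longest run of letters present in at least 3 members was ACACACCTTTAATC, in Zfp352, Sp110 and Tdpoz1. The 250 bases before the start are given 5′ to 3′ on the strand of the gene, with that run in capitals. Zfp352 lies on the plus strand (chr4:90218570-90218819), Sp110 on the minus strand (chr1:85603892-85604141), at a start inside the annotated gene, and Tdpoz1 on the minus strand (chr3:93676284-93676533).
Zfp352: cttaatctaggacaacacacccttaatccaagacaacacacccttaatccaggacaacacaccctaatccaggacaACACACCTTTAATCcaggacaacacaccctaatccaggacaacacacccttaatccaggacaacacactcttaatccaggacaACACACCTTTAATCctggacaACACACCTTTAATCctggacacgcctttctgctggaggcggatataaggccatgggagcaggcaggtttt
Sp110: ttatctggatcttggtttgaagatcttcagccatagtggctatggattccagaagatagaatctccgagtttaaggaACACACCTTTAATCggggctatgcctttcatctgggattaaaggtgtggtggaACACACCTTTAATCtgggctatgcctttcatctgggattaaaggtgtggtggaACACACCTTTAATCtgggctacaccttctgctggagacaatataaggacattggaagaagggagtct
Tdpoz1: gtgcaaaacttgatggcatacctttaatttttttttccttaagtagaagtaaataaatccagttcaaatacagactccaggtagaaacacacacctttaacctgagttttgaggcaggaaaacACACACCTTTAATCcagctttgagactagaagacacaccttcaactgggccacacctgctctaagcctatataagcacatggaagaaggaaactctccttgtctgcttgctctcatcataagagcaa

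Counted without mismatches, the run occurred 3 times in the window of Zfp352, 3 times in the printed window of Sp110 and 1 time in that of Tdpoz1. These matches were always in the direction of the gene. The printed letters of Sp110 also hold near copies in the opposite direction, which were not counted. The other window of Sp110 (chr1:85598761-85599060), also at a start inside the annotated gene, held neither the run nor ATATAAG. The Sp110 probe sets were not placed relative to either start. The run was found in 41 of all 32851 promoter windows (0.125%). In the printed windows the same 3 members carry the letters ATATAAG between the run and the start, at 29 bases before the start in Zfp352, 28 in Sp110 and 59 in Tdpoz1. These letters were found in 2.52% of all windows on either strand, and run and ATATAAG together in 31 windows (0.0944%) of 30 genes. Both strings were picked after the sequences had been read, so their presence in these members is a description. Outside the members 37 genes have the run, 5 of them have a probe set of their own and 3 were tested. None of these 3 was called: Gm33248 differed by 0.28 on the log2 scale (adjusted p = 0.53, limma), Pemt by 0.05 (adjusted p = 0.88) and Zbed3 by 0.16 (adjusted p = 0.6).

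The DUX motif, written TGATTNAATCA and searched for on both strands, was found in 0 of the 8 members with a window and in 11 of all windows (0.0335%). The window of Duxf3 itself held TGATTGAATCC, which has 1 mismatch to it, and up to 1 mismatch was found in 241 windows (0.734%). The other members had 3 or more mismatches at best. The TATA box TATAAA was found in 0 of the 8 and in 13.6% of all windows on either strand; it shares the letters TATAA with ATATAAG. Tmem132c had a window with 29 CpG pairs, while those of the other members held 0 to 5, beside a median of 7 over all windows. An absent match says only that these letters are not in these windows.

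A probe set had to have a mean log2(signal + 16) above the median of all probe sets, a signal of about 67.2, to be tested with limma. Of the 15 member probe sets 12 passed, and 2 of them (Tdpoz1 and Spz1) passed only through the (+)/(+) iPSCs. Over the whole array 305 of 22518 tested probe sets (1.35%) were called higher in (+)/(+) iPSCs and 398 (1.77%) lower at an adjusted p under 0.05, and 10.5% had all 3 (+)/(+) clones above all 3 (−)/(+) clones. With every array scaled to a common median the same counts were 917 and 238, 79.4% of calls then being higher in place of 43.4%, and the median log2 difference of all tested probe sets moved from −0.05 to 0.1. Of the 12 member probe sets 11 were among the calls and 12 of 12 had groups that did not overlap; since the members were chosen from this contrast, nothing is read from either count. Below, means are given ± SD with n = 3 clones a group, and log2 differences are (+)/(+) minus (−)/(+) on the log2(signal + 16) scale, which understates the change of low signals.

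**Figure D1:**
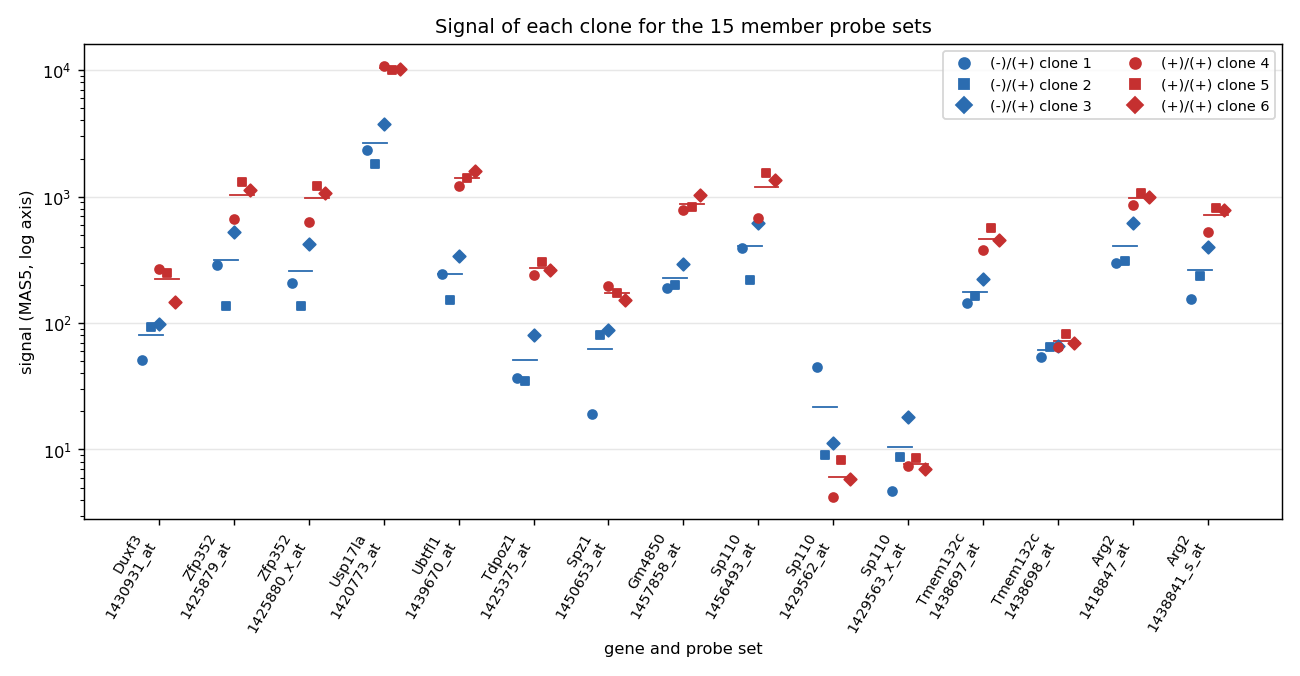
Signal of the 15 member probe sets (x axis) in the 6 clones (y axis, MAS signal, log scale), with (−)/(+) clones in blue, (+)/(+) clones in red and horizontal bars at the group means. In 12 probe sets all red points lie above all blue ones, and the diamond of clone 3 is the highest blue point in 14 of 15. Among all tested probe sets the shares were 10.5% and 28.8%, while 3 of the 15 were below the filter. The members were chosen from these values, so nothing is read from the counts.

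Duxf3 (chr10:58229505-58233089) encodes the Dux factor; all positions are those of the RefSeq gene in GRCm38.p6. Its own probe set, 1430931_at, read 51.4, 92.8 and 97.6 in clones 1 to 3, the (−)/(+) iPSCs, and 267, 247 and 148 in clones 4 to 6, the (+)/(+) iPSCs. The means were 80.6 ± 25.4 and 221 ± 63.9, a log2 difference of 1.29. The groups did not overlap, and clone 6 stood nearest to the (−)/(+) clones, at 1.51 times the signal of clone 3. Fewer cells of a type and less RNA per cell cannot be told apart in such bulk samples, here or for any gene that follows. A second probe set built from the same transcript record is annotated to Duxf3 with Gm4981 and Gm9919, so it is not a member. It read 137, 95 and 252 in clones 1 to 3 and 477, 471 and 450 in clones 4 to 6, a log2 difference of 1.54. There clone 6 was level with the other (+)/(+) clones, unlike in the first probe set. Dux lies in an array of near-identical copies on chromosome 10, and which copies either probe set reads cannot be told apart.

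Zfp352 (chr4:90218820-90225687) encodes a zinc finger protein known from the 2-cell embryo. Its probe set 1425879_at read 290, 137 and 521 in clones 1 to 3 and 670, 1297 and 1130 in clones 4 to 6 (means 316 ± 193 and 1032 ± 324, log2 difference 1.79). The other, 1425880_x_at, from the same transcript record, read 207, 137 and 424, then 628, 1203 and 1071 (means 256 ± 150 and 967 ± 301, log2 difference 1.95). Both put the clones in one order, with clone 2 lowest and clone 3 highest of its group and clone 4 lowest and clone 5 highest of the other. In the first probe set the spread inside the (−)/(+) group, 3.8-fold from clone 2 to clone 3, was larger than the 3.27-fold ratio of the group means.

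Spz1 (chr13:92574631-92576232) encodes a leucine zipper transcription factor first known from the testis. With 1450653_at it read 19.0, 80.2 and 87.9 in clones 1 to 3 and 195, 174 and 153 in clones 4 to 6 (means 62.3 ± 37.8 and 174 ± 20.9, log2 difference 1.43). Clone 1 read far below the 67.2 of the filter and below clones 2 and 3, and the groups did not overlap. Spz1 passed the filter only through the (+)/(+) iPSCs. It was the 1 of the 12 tested member probe sets not among the calls, from which nothing is read. Ubtfl1 (chr9:18404418-18411502) encodes a relative of the nucleolar transcription factor UBTF that is expressed in the early embryo. With 1439670_at it read 244, 151 and 340 in clones 1 to 3 and 1210, 1403 and 1583 in clones 4 to 6 (means 245 ± 94.4 and 1399 ± 186). Its log2 difference of 2.5 was the largest of the 12 tested probe sets, and the lowest (+)/(+) clone read 3.56 times the highest (−)/(+) clone, the widest gap among them.

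Usp17la (chr7:104857016-104862667) belongs to the USP17 family of deubiquitinating enzymes, and Tdpoz1 (chr3:93669333-93676283) to a family of proteins with TRAF and POZ domains related to the ubiquitin ligase adaptor SPOP. Usp17la (1420773_at) read 2319, 1809 and 3783 in clones 1 to 3 and 10878, 10109 and 10286 in clones 4 to 6 (means 2637 ± 1025 and 10424 ± 403, log2 difference 2.04). The (+)/(+) clones lay within 1.08-fold of each other, the tightest of the 12, while the (−)/(+) clones spread over 2.09-fold. Tdpoz1 (1425375_at) read 37.0, 34.8 and 81.0 in clones 1 to 3 and 242, 306 and 262 in clones 4 to 6 (means 50.9 ± 26 and 270 ± 32.4, log2 difference 2.16). Its readings in clones 1 and 2 lay below the 67.2 of the filter, and the ratio of means of 5.3 rests on signals near the background of the array. Both genes have close relatives in the genome, and which copies their probe sets read cannot be told apart.

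Gm4850 (chr1:31264847-31268061) is annotated by RefSeq as a transcribed pseudogene. With 1457858_at it read 191, 199 and 295 in clones 1 to 3 and 787, 823 and 1027 in clones 4 to 6 (means 229 ± 57.7 and 879 ± 129, log2 difference 1.89). The gap between the groups, 2.67-fold, equalled that of Usp17la, and neither group spread over more than 1.54-fold.

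Sp110 (chr1:85570735-85610850) encodes a nuclear body protein known as an interferon-inducible gene. Its probe set 1456493_at read 389, 217 and 616 in clones 1 to 3 and 680, 1541 and 1356 in clones 4 to 6 (means 407 ± 200 and 1192 ± 453, log2 difference 1.55). Clone 4 was only 1.1 times clone 3, the smallest gap of the 12, and clone 5 read 2.27 times clone 4. The other Sp110 probe sets come from another transcript record and were not tested: 1429562_at read 45.1, 9.06 and 11.3 in clones 1 to 3 and 4.21, 8.27 and 5.79 in clones 4 to 6, and 1429563_x_at 4.73 to 17.9 and 7.03 to 8.51. In neither did the (+)/(+) clones all lie above the (−)/(+) clones.

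Tmem132c (chr5:127241826-127565790) encodes a transmembrane protein and Arg2 (chr12:79130788-79156301) the mitochondrial arginase, which splits arginine into ornithine and urea. Tmem132c read 145, 164 and 223 in clones 1 to 3 and 376, 562 and 457 in clones 4 to 6 with probe set 1438697_at (means 177 ± 40.6 and 465 ± 93.1, log2 difference 1.32). Its second probe set, 1438698_at, from the same transcript record, read 53.7, 64.1 and 66.1, then 64.8, 81.8 and 69.3, with overlapping groups, and was below the filter. Arg2 read 299, 310 and 622 in clones 1 to 3 and 866, 1069 and 992 in clones 4 to 6 with 1418847_at (means 410 ± 184 and 976 ± 103, log2 difference 1.29). With 1438841_s_at it read 156, 234 and 403, then 525, 816 and 785 (means 265 ± 127 and 709 ± 159, log2 difference 1.44). Both Arg2 probe sets put clone 3 at the top of its group and nearest to the (+)/(+) clones.

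Within the groups the members shared part of the order of the clones. Clone 3 was the highest (−)/(+) clone in 12 of the 12 probe sets that passed the filter, while it was so in 28.8% of all tested probe sets and in 43.2% of the 294 other probe sets called higher. The lowest (−)/(+) clone was clone 1 in 6 probe sets (Duxf3, Spz1, Gm4850, Tmem132c and both of Arg2) and clone 2 in the other 6 (both of Zfp352, Usp17la, Ubtfl1, Tdpoz1 and Sp110). Clone 4 was the lowest (+)/(+) clone in 9 of 12, against 40.8% of all tested probe sets and 45.9% of the 294. The exceptions were Duxf3, Usp17la and Spz1, in which it was the highest. The median SD on the log2 scale was 0.562 within (−)/(+) and 0.241 within (+)/(+) iPSCs for the members, and 0.181 and 0.158 for all tested probe sets. The (−)/(+) SD was the larger one in 11 of 12 member probe sets, in 55.1% of all and in 62.6% of the 294 others called higher. Members share arrays, and their variation together was part of why they were chosen.

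**Figure D2:**
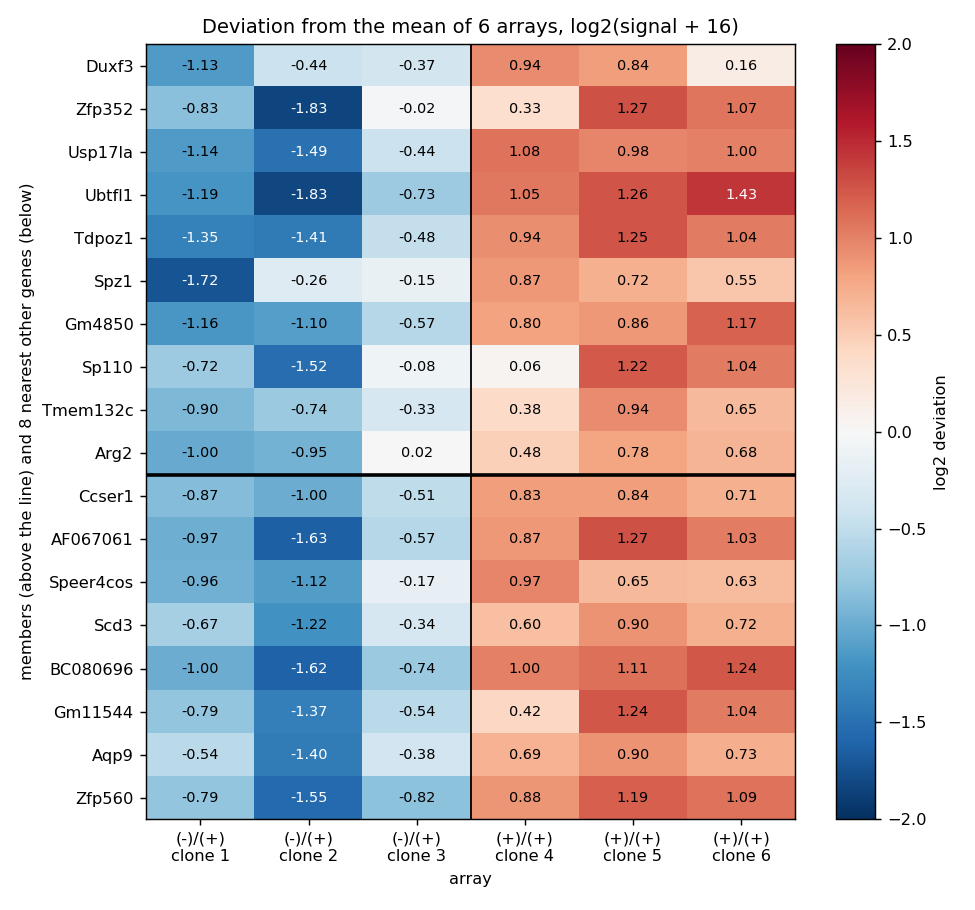
Deviation of each clone (columns) from the mean of 6 arrays on the log2(signal + 16) scale, for the brightest probe set of each member (rows above the line) and for the 8 other genes nearest to the members' median profile (rows below). Clone 3 is the least negative (−)/(+) column in all 10 members, and the rows of Zfp352, Sp110 and Arg2 come nearest to 0 in clone 3. The members were chosen partly because they vary together, so this is a description.

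After each gene was centred on its mean, the median profile of the 10 members ran through −1.13, −1.26 and −0.35 in clones 1 to 3, then through 0.83, 0.96 and 1.02 in clones 4 to 6. Gm4850 and Usp17la lay nearest to it, at root mean square distances of 0.133 and 0.145 on the log2 scale, and Spz1 (0.525) and Duxf3 (0.492) farthest. Of the 45 pairs of members the closest were Usp17la with Tdpoz1 (0.159), Zfp352 with Sp110 (0.179) and Tmem132c with Arg2 (0.189), and the most distant were Ubtfl1 and Spz1 (0.834). Duxf3 was nearer to Spz1 (0.32) and Tmem132c (0.347) than to Zfp352 (0.771).

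Among 11167 other genes the 8 nearest to the members' median profile were Ccser1, AF067061, Speer4cos, Scd3, BC080696, Gm11544, Aqp9 and Zfp560, at distances from 0.214 to 0.284 over the 6 arrays. Ccser1 read 113, 102 and 149 in clones 1 to 3 and 404, 405 and 368 in clones 4 to 6. AF067061, a gene of the 2-cell embryo on chromosome 13, read 2978, 1878 and 3930, then 10705, 14120 and 11941. Its promoter window holds the run with 1 mismatch and ATATAAG. The run with up to 1 mismatch was found together with ATATAAG in 39 of all windows (0.119%). The windows of Ccser1, Scd3, Aqp9 and Zfp560 have 5 or 6 mismatches and no ATATAAG, and none was compared for Speer4cos, BC080696 and Gm11544. Both strings were picked from the members' windows, so this is a description. The 5 genes nearest to Duxf3 were Gm8579, 9530059O14Rik, Ccser1, Zfp619 and Bola1, at 0.198 to 0.366. Gm8579 read 85.7, 190 and 203 in clones 1 to 3 and 368, 384 and 291 in clones 4 to 6, with clone 1 lowest and clone 6 lowest of its group as in Duxf3.

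Other genes of the 2-cell programme were counted next, and here the values come from the limma fit adjusted over all tested probe sets. Of 66 listed genes 18 have a probe set of their own and 19 are named only in probe sets shared with other genes. Of 13 that were tested 5 were higher (Pramel18, AF067061, Gm20767, Tcstv1 and Tcstv3) and 0 lower, beside 1.35% and 1.77% of all tested probe sets, with a median log2 difference of 0.59 beside −0.05. The list was drawn up with earlier results of these data known, so this count is a description. All but Pramel18 lie on chromosome 13, so the 5 calls may not be independent of one another. The probe set of AF067061 carries the suffix x_at, which marks probes that may also bind related transcripts. Pramel18 read 536 ± 154 in (−)/(+) and 3278 ± 29.7 in (+)/(+) iPSCs (log2 difference 2.62, SE 0.19, adjusted p = 0.0011). Gm20767 read 1145 ± 419 and 6040 ± 2166 (log2 difference 2.40, SE 0.29, adjusted p = 0.0043), and Tcstv1 968 ± 398 and 5085 ± 2177 (log2 difference 2.39, SE 0.33, adjusted p = 0.0079). The same 5 genes were called in all 15 limma settings tried. The 8 tested genes without a call ran from Obox6, an oocyte and early embryo homeobox gene, at −0.22 (SE 0.14, adjusted p = 0.41), to Lmx1a at 0.81 (SE 0.3, adjusted p = 0.16). Between them lay Klf17 at −0.09, Trim43a at 0.09 (SE 0.29, adjusted p = 0.88), Slc34a2 at 0.12, Ddit4l at 0.27, Pramel7 at 0.42 and Pramel6 at 0.59.

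Of 9 tested genes known to help switch Dux on, 1 was higher and 0 lower, beside 1.35% and 1.77% of all tested probe sets. Their median log2 difference was 0.07. Nelfa, a subunit of the negative elongation factor that can drive a 2-cell-like state in mouse stem cells, read 2167, 1783 and 3043 in clones 1 to 3 and 3991, 5062 and 5140 in clones 4 to 6. Its log2 difference was 1.04 (SE 0.18, adjusted p = 0.018), with clone 2 lowest, clone 3 highest of its group and clone 4 lowest of the other, the order seen in Ubtfl1. Without clone 5 the adjusted p was 0.069, and without clone 6 it was 0.1. Dppa2 and Dppa4, a pair of DNA-binding proteins that act on the Dux promoter, differed by 0.33 (SE 0.10, adjusted p = 0.099) and 0.15 (SE 0.10, adjusted p = 0.43). Dppa3, a maternal factor of the oocyte and early embryo, differed by 0.75 (SE 0.58, adjusted p = 0.49).

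Of 27 tested genes known to keep Dux or the 2-cell state silent, 0 were higher and 1 was lower, beside 1.35% and 1.77% of all tested probe sets. Their median log2 difference was −0.05. Uhrf1, which brings DNA methyltransferase to newly copied DNA, read 7408 ± 799 in (−)/(+) and 5342 ± 178 in (+)/(+) iPSCs (log2 difference −0.47, SE 0.10, adjusted p = 0.036). This call was lost without clone 2, 3, 4, 5 or 6 (adjusted p from 0.075 to 0.15) and with scaling to a common median (adjusted p = 0.13). The uncalled genes with the smallest adjusted p went in opposite directions. They were Dnmt1 at −0.38 (SE 0.09, adjusted p = 0.053) and Zfp42 at 0.42 (SE 0.1, adjusted p = 0.058).

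**Figure D3:**
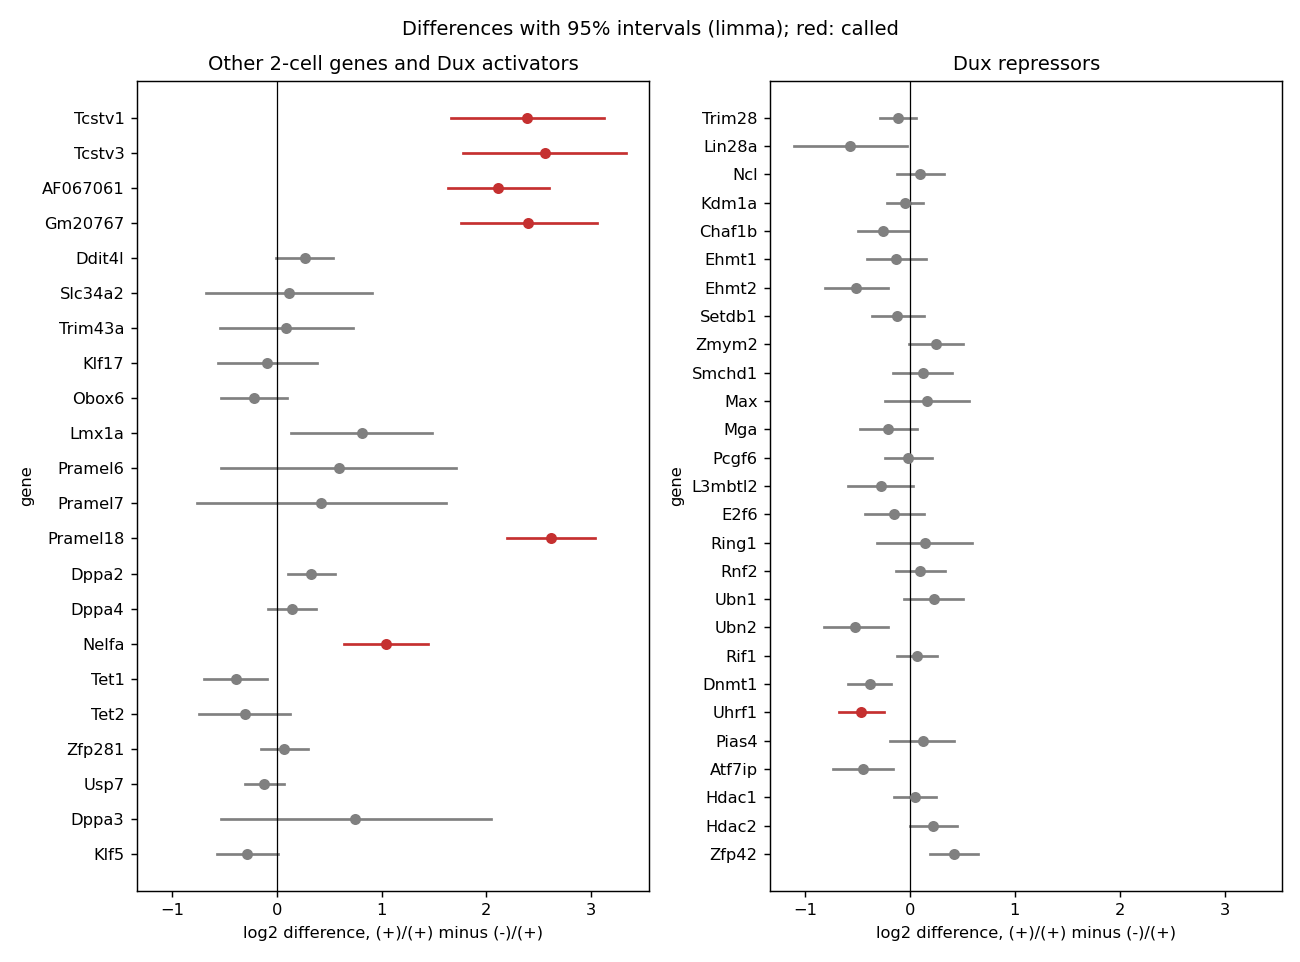
Log2 differences ((+)/(+) minus (−)/(+), x axis) with 95% intervals from limma for tested genes (y axis) among the other 2-cell genes and Dux activators (left) and the Dux repressors (right), with called genes in red. The 5 called 2-cell genes and Nelfa lie to the right of 0, and Uhrf1 is the 1 called repressor.

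Relatives and pathway partners of the members were counted in the same way, again beside 1.35% of all tested probe sets called higher and 1.77% lower. Of 4 tested paralogues 0 were higher and 1 was lower: Spop, which is related to Tdpoz1, read 1661 ± 268 and 1069 ± 91.5 (log2 difference −0.62, SE 0.14, adjusted p = 0.043), a call lost without clone 1, 3, 4, 5 or 6 (adjusted p from 0.064 to 0.16). Arg1, the cytosolic arginase beside Arg2, was below the filter with signals from 1.18 to 17.5. Of 12 tested genes of arginine and polyamine metabolism 0 were higher and 1 was lower, Srm, the spermidine synthase, at −0.45 (SE 0.11, adjusted p = 0.049), which was lost without clone 1, 3, 4, 5 or 6 (adjusted p from 0.066 to 0.19). Of 7 tested interferon-induced genes, set beside Sp110, 0 were called in either direction with limma and 4 had an unadjusted p under 0.05, with a median log2 difference of −0.36. An unadjusted p under 0.05 was found for 21.2% of all tested probe sets, and for 6 of 13 other 2-cell genes, 3 of 9 Dux activators, 9 of 27 Dux repressors, 2 of 4 paralogues and 3 of 12 arginine and polyamine genes. The brightest of the 7 interferon-induced genes, Bst2, Irf1 and Oas1a, differed by 0.46 (SE 0.21), −0.39 (SE 0.18) and −0.36 (SE 0.14).

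The members lie on 9 chromosomes, with only Gm4850 and Sp110 on the same one (GRCm38.p6). For each member the 5 nearest tested genes on either side were taken, 100 in all, from 21 to 7266 kb away. Of these 3 were higher and 1 was lower, beside 1.35% and 1.77% of all tested probe sets, and their median log2 difference was −0.06. Zfp560, a zinc finger gene 1957 kb from Ubtfl1 on chromosome 9, rose from 556 ± 154 to 2392 ± 264 (log2 difference 2.11, SE 0.19, adjusted p = 0.0024). Taf1d, 3096 kb from Ubtfl1, differed by 0.61 (SE 0.09, adjusted p = 0.011). Its adjusted p was 0.054 without clone 5 and 0.078 without clone 6. Sdhaf4, 7266 kb from Gm4850, differed by 0.53 (SE 0.12, adjusted p = 0.049). Dst, 2842 kb from Gm4850 on the other side, differed by −0.59 (SE 0.12, adjusted p = 0.034). Sdhaf4 lost its call without any 1 of the 6 clones (adjusted p from 0.075 to 0.2) and Dst without clone 2, 3, 4, 5 or 6 (adjusted p from 0.069 to 0.12). For the other 8 members 0 of 10 neighbours were called, among them the gene 49 kb from Duxf3 and the one 21 kb from Arg2.

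**Figure D4:**
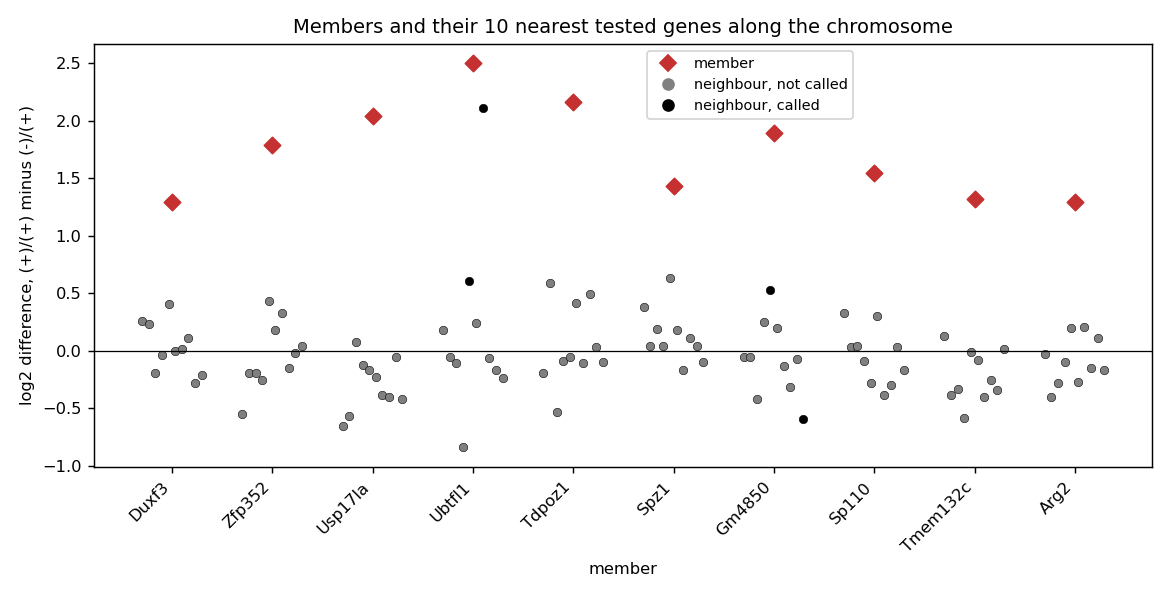
Log2 difference ((+)/(+) minus (−)/(+), y axis) of each member (red diamonds, brightest probe set) and of its 10 nearest tested genes along the chromosome (circles, ordered by position, black where called), for the 10 members (x axis). Outside Ubtfl1, the neighbours lie between −0.65 and 0.63 and the members between 1.29 and 2.16.

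Markers of the cells themselves were read on the same arrays, on which 1.35% of all tested probe sets were called higher and 1.77% lower. The signal summed over 12 pluripotency genes ran from 129252 to 136877 in (−)/(+) and from 144643 to 152859 in (+)/(+) clones. Bright genes weigh most in such a sum, and the median log2 difference of the 12 was 0.06. Fbxo15 was the 1 of the 12 called higher, from 13486 ± 1848 to 20844 ± 1082. Over 16 fibroblast genes, which the starting cells and the feeder layer also express, the sum ran from 25572 to 33991 in (−)/(+) and from 17068 to 20162 in (+)/(+) clones. Of the 14 tested, 4 (Col1a2, Vim, Col3a1 and Acta2) were lower and 0 higher, with a median log2 difference of −0.55. An unadjusted p under 0.05 (limma) was found for 10 of them, beside 21.2% of all tested probe sets. Vim lost its call without clone 6 (adjusted p = 0.068), Col3a1 and Acta2 theirs without clone 2, 3, 4, 5 or 6 (adjusted p from 0.057 to 0.14), and Fbxo15 without clone 5 or 6 (adjusted p = 0.051 and 0.09). Of 5 tested testis germ cell genes, set beside Spz1, Sycp3 (log2 difference 1.05, SE 0.20, adjusted p = 0.025) and Ddx4 (1.01, SE 0.22, adjusted p = 0.041) were higher, while the spermatid genes Prm1, Prm2 and Tnp1 read at most 41.7 in any clone. Sycp3 lost its call without clone 3, 5 or 6 (adjusted p from 0.089 to 0.13) and Ddx4 without clone 2, 3, 4, 5 or 6 (adjusted p from 0.088 to 0.13). The median signal was 74.2 to 75.7 on the (−)/(+) arrays and 64.1 to 70.2 on the (+)/(+) arrays. The part of these differences in the members' signals was not tested.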

How the data were processed

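Biotin-labelled RNA of undifferentiated iPSCs was measured on 1-colour Affymetrix Mouse Genome arrays, 1 for each of 6 clones. The authors quantified the arrays with the MAS method, and the deposited intensity values are linear signals, 1 per probe set, with a trimmed mean (2% cut at either end) of 500 on every array. Detection calls and scanner files were not used here.

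The table has 45101 probe sets, of which 64 are controls and were dropped. By the array annotation 34945 of the 45037 remaining ones have 1 gene symbol, 932 several and 9160 none. Without further scaling, log2(signal + 16) was computed, and the 22518 probe sets whose mean lay above the median (a signal of about 67.2) were tested with limma 3.58.1 in R 4.3.3, by lmFit and a trended eBayes with group as the only term. A probe set is said to be called at an adjusted p under 0.05 (Benjamini-Hochberg, over all those tested). The fit was tested on simulated data. A gene outside the members is given by its brightest probe set, and the counts of a gene list are set beside the share of all probe sets called, with no test of the list.

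The members and the gene lists were chosen with earlier results of these data known. Named in the text are all members with all their probe sets, from every list up to 4 called genes (smallest adjusted p first) or, if it had no call, up to 3 with the highest signal, the 8 genes nearest to the members and the 5 nearest to Duxf3 by centred profile over the 6 arrays, and called neighbours. Other genes named from a list were chosen after their values were seen. Promoter windows hold 250 bases before and 50 bases after a RefSeq start in GRCm38.p6. The longest shared run and ATATAAG were searched for after they had been found in the windows of the members. The labels do not tie the clones to separate animals, so p-values measure the spread between these clones, and the number of arrays limits the precision. Tried as alternatives were quantile normalization, a common median for all arrays, a pseudocount of 1 or of 64, dropping the filter or raising it to a mean signal of 500, arrayWeights, eBayes with no trend, the methods' t-test, and each clone left out in turn. Python 3.11.15 with matplotlib 3.10.9 drew the figures.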

Additional observations from a re-analysis of the deposited data

How the results depend on the processing

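The members' median log2 difference was 1.5 to 1.98 when 1 clone was left out, which is a description of values the members were chosen for. With 1 clone left out, 27 to 446 probe sets were called higher and 25 to 515 lower, beside 5 other 2-cell genes each time, 0 to 1 Dux activators, 0 to 2 Dux repressors, 0 to 1 paralogues, 0 to 2 arginine and polyamine genes, 0 to 2 interferon genes and 1 to 4 neighbouring genes.

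Quantile normalization gave 255 lower probe sets, 2 repressors and 0 paralogues. Scaling to a common median gave 917 higher and 238 lower probe sets, 0 paralogues and 7 neighbours. A pseudocount of 1 gave 0 arginine genes. Without a filter the values were 101 higher and 120 lower probe sets, 0 repressors, 0 paralogues, 0 arginine genes and 2 neighbours. A mean signal above 500 left 7 member probe sets and gave 165 lower probe sets, 2 repressors and 0 arginine genes. Of the 7 only that of Usp17la had a (−)/(+) mean above 500, so the others passed only through the (+)/(+) iPSCs. All 7 did not overlap and had clone 3 highest of its group, from which nothing is read. Without trend, eBayes gave 87 higher and 178 lower probe sets, 0 activators, 0 repressors, 0 paralogues, 0 arginine genes and 1 neighbour. With arrayWeights the values were 1015 higher and 1512 lower probe sets, 2 activators, 7 repressors, 2 arginine genes, 3 interferon genes and 12 neighbours. The methods' t-test after Benjamini-Hochberg gave 0 higher and 1 lower probe set, and 0 other 2-cell genes, activators, repressors, paralogues, arginine genes or neighbours. Unadjusted, it gave 1572 higher and 2427 lower probe sets, 2 activators, 7 repressors, 3 arginine genes, 1 interferon gene and 21 neighbours. The cause of these changes was not tested. No paired analysis was possible because the groups share no clone numbers. Signals near background limit the (−)/(+) readings of Duxf3 and the low probe sets of Sp110, Tdpoz1, Spz1 and Tmem132c.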
